A study of Homo sapiens with 15 samples.

Results

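The gelatinases MMP2 and MMP9 and the tissue inhibitors of metalloproteinases TIMP2, TIMP3 and TIMP4 are 5 of the 84 target genes on an RT2 Profiler PCR array for tumor metastasis, a plate of SYBR Green quantitative PCR assays. They form a group by function and were found through the wells that carry their symbols, and all 5 had a value in every comparison. The array was run on MDA-MB-231 and MDA-MB-468, which are established human triple-negative breast cancer cell lines. Cells were left unstimulated or were exposed for 24 h, by the text of the series (a figure legend of the paper gives a shorter time), to conditioned medium (CM) of human monocyte-derived macrophages (MDM) that had themselves been primed with the supernatant of either cancer line. The labels list 15 samples, with 3 CM-exposed and 4 unstimulated samples of MDA-MB-231 cells, and 4 of either kind of MDA-MB-468 cells. No label says whether they came from separate cultures or from different macrophage donors, and the labels do not say which cancer line primed the MDM of a given sample. As a model, CM of cultured MDM leaves out contact between the cells.

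MMP2 (gelatinase A) and MMP9 (gelatinase B) are secreted zinc proteases that cut denatured collagen and the type IV collagen of basement membranes, and both are studied for their part in tumor invasion. They are made as inactive proenzymes. TIMP proteins bind the active site of metalloproteinases, so the amount of protease relative to inhibitor bears on how much matrix is cut. TIMP2 also takes part in activating proMMP2 at the cell surface, TIMP3 is held in the extracellular matrix, and TIMP4 has a more restricted tissue distribution. The array measures mRNA of the whole culture, so proenzyme, active enzyme and bound inhibitor were not measured, and fewer expressing cells and less RNA per cell cannot be told apart.

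Each deposited value was the fold change of 1 CM sample over 1 unstimulated sample, with 3 comparisons per line that are named here by the number of the unstimulated control (2, 3 or 4). Each group also lists 1 sample without a number in its title, and by the headers it enters none of these comparisons. The values used thus rest on fewer samples than are listed. To express it relative to a reference gene, it was divided by the ACTB value of that comparison for MDA-MB-231 cells and by the RPLP0 value for MDA-MB-468 cells. In each line the comparisons with controls 3 and 4 carry the same CM sample number in their headers, so they may share it, and no test was run on 3 values whose independence is not settled. Raised genes are those with a geometric mean over 2 and all comparisons above 1, and lowered genes those with a geometric mean under 0.5 and all comparisons below 1. The headers of the MDA-MB-468 comparisons name an MDA-MB-231 control. CDH1, the epithelial cadherin that MDA-MB-468 is known to express and MDA-MB-231 to have lost, had fold changes of 1.70, 2.26 and 0.696 in these comparisons and of 1.38, 1.08 and 2.30 in those of MDA-MB-231.

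After exposure to CM, both gelatinases were counted as raised in both lines, and none of the 3 TIMP genes was counted as raised or lowered in either. The geometric mean fold changes of MMP2 were 5.53 in MDA-MB-231 cells and 4.32 in MDA-MB-468, and those of MMP9 were 4.53 and 4.38. Those of the TIMP genes lay between 0.825 (TIMP2) and 1.43 (TIMP4) in MDA-MB-231, and between 0.552 (TIMP3) and 1.29 (TIMP4) in MDA-MB-468. Raised genes were common on the array, at 31.0% of the 84 target genes in MDA-MB-231, 27.4% in MDA-MB-468 and 25.0% in both, while 3.57% were lowered in each line.

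**Figure D1:**
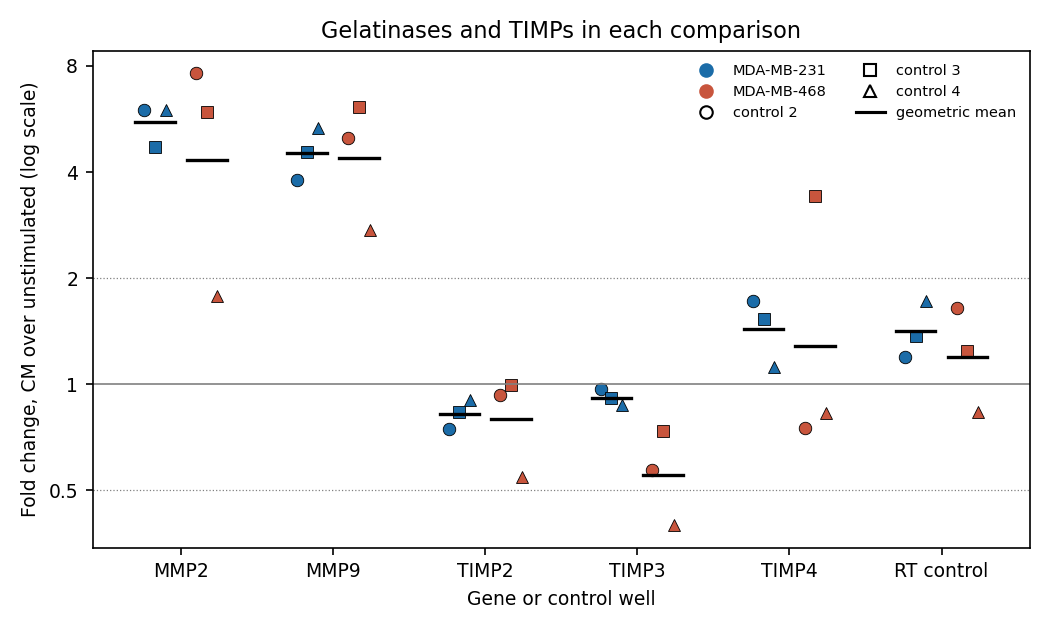
Fold change after CM (y axis, log scale) of the 5 genes and of the reverse transcription (RT) control well, with 1 point per comparison, shape for the control number, colour for the line and a bar for the geometric mean over 3 comparisons; dotted lines mark 2 and 0.5. MMP2 and MMP9 lie above 1 in all 6 comparisons, TIMP2 and TIMP3 lie below 1 in all 6 with this reference (ACTB or RPLP0) but not with GAPDH, and MDA-MB-468 with control 4 is the lowest value for 4 of the 5 genes.

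MMP2 in MDA-MB-231 had fold changes of 6.01, 4.71 and 5.99 with controls 2, 3 and 4. The 3 values lay close together, with a mean log2 fold change of 2.47 ± 0.203 (SD, n = 3 comparisons), and MMP2 ranked 2 of the 84 target genes by this mean. In MDA-MB-468 the fold changes of MMP2 were 7.62, 5.94 and 1.78. Here the comparison with control 4 stood well below the other pair, and the mean log2 fold change of 2.11 carried an SD of 1.12, against a median SD of 0.695 over the 84 target genes of this line. Without control 4 the geometric mean of MMP2 in MDA-MB-468 was 6.73 in place of 4.32. MMP2 ranked 11 in this line.

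MMP9 in MDA-MB-231 had fold changes of 3.81, 4.56 and 5.34 with controls 2, 3 and 4, a mean log2 fold change of 2.18 ± 0.245 (SD, n = 3 comparisons), and ranked 4. In MDA-MB-468 its fold changes were 5.00, 6.12 and 2.75, a mean log2 fold change of 2.13 ± 0.601 (SD, n = 3 comparisons), and it ranked 9. MMP9 was thus over 2 in each of the 6 comparisons, as were 16.7% of the target genes, whereas MMP2 missed this in MDA-MB-468 with control 4. For neither gelatinase did the lines separate, since the values of MDA-MB-468 overlapped those of MDA-MB-231 on both sides.

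Within a comparison, the gelatinases were close to each other. The fold change of MMP2 divided by that of MMP9 was 1.58, 1.03 and 1.12 in MDA-MB-231 cells and 1.52, 0.970 and 0.650 in MDA-MB-468. MMP2 was therefore the higher of the pair in all comparisons of MDA-MB-231, by little with controls 3 and 4, and in 1 of the comparisons of MDA-MB-468.

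TIMP2 in MDA-MB-231 had fold changes of 0.747, 0.834 and 0.903 with controls 2, 3 and 4, a geometric mean of 0.825. In MDA-MB-468 the fold changes were 0.931, 0.997 and 0.544, a geometric mean of 0.797. All 6 values were below 1, which held for 8.33% of the target genes, although MDA-MB-468 with control 3, at 0.997, was next to 1, and the lines overlapped. With other references single comparisons of TIMP2 were above 1, reaching 1.19 with GAPDH, 1.15 with the mean of 4 housekeeping genes (without B2M) and 1.03 with the median of the target genes. TIMP2 ranked 76 of 84 in MDA-MB-231 cells and 55 in MDA-MB-468.

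TIMP3 in MDA-MB-231 had fold changes of 0.969, 0.914 and 0.871, a mean log2 fold change of -0.12 ± 0.0766 (SD, n = 3 comparisons), the narrowest spread of the 5 genes. In MDA-MB-468 the fold changes were 0.571, 0.739 and 0.398, a geometric mean of 0.552 and a mean log2 fold change of -0.86 ± 0.448 (SD, n = 3 comparisons). All 6 values were below 1. In MDA-MB-468 this held under the other references too, whereas in MDA-MB-231 the highest comparison was at 1.28 with GAPDH and at 1.09 with the mean of 4 or of 5 housekeeping genes. Every value of MDA-MB-468 was below every value of MDA-MB-231. The lines failed to overlap for 23.8% of the target genes, and in this direction for 15.5%. For TIMP3 this depended on the reference. The lines also separated with the mean of the 5 housekeeping genes (B2M, ACTB, RPLP0, GAPDH and HPRT1) or of the 4 without B2M, and they overlapped with GAPDH, with the RT control wells and with the median of the target genes. TIMP3 in MDA-MB-468 was near the threshold, and was counted as lowered with the RT control wells or with the mean of the 5 housekeeping genes, of which B2M had a fold change of 3.75 in this line. Without the comparison with control 3 it was counted as lowered too, at a geometric mean of 0.477.

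TIMP4 in MDA-MB-231 had fold changes of 1.73, 1.53 and 1.12, with a geometric mean of 1.43. All were above 1, as held in this line for 42.9% of the target genes, but the lowest was 0.981 with GAPDH, 0.852 with the median of the target genes and 0.650 with the RT control wells. In MDA-MB-468 they were 0.754, 3.41 and 0.829, so that the geometric mean of 1.29 rested on the comparison with control 3. Without it the geometric mean was 0.791, on the other side of 1, and the SD of 1.22 on the log2 scale was the largest of the 5 genes.

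Of the 5 genes, TIMP3 and TIMP4 were found in the RefSeq promoter table (GRCh38.p14). The 250 bases before their starts are shown because these were the members with an entry. The promoters of MMP2 and MMP9 had been planned but had none. The windows lie at chr22:32801455-32801704 on the + strand for TIMP3 and at chr3:12158913-12159162 on the - strand for TIMP4, and are written 5′ to 3′ with matches to the SP1 motif GGGCGG on either strand in capitals.
TIMP3: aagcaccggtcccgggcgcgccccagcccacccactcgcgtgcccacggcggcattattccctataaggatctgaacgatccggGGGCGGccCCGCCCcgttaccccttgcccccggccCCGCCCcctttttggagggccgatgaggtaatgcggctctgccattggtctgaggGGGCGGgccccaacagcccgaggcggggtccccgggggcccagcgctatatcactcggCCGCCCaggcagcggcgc
TIMP4: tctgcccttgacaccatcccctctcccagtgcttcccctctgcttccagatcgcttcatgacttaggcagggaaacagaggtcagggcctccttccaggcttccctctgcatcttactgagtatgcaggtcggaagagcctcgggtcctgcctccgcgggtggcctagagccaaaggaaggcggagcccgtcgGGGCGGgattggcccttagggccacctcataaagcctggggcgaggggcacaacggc
TIMP3 held 5 matches to GGGCGG and TIMP4 held 1. At least 1 match was found in 42.6% of the 35116 promoters of the same length in the table, and 5 or more in 4.15%. The GC content was 72.4% for TIMP3 and 62.8% for TIMP4, against a median of 58.0%. Neither window held the AP-1 motif TGANTCA, which 6.57% of the promoters held. A loose NF-kB pattern (GGG, 5 free bases and CC) matched at 14 places on either strand in TIMP3, some of them overlapping each other and the GGGCGG matches, and at 4 in TIMP4, and 54.4% of the promoters held at least 1 and 0.0683% at least 14. These matches describe the sequence only. By RefSeq on the same build, MMP2 lies at chr16:55478830-55506691, MMP9 at chr20:46008908-46016561, TIMP2 at chr17:78852977-78925387, TIMP3 at chr22:32801705-32863041 and TIMP4 at chr3:12153068-12158912.

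The 3 RT control wells of the array, which test reverse transcription with an artificial RNA, shared 1 value in each comparison, as wells set to a common ceiling of the threshold cycle would. Their fold changes were 1.19, 1.38 and 1.72 in MDA-MB-231 cells and 1.65, 1.24 and 0.832 in MDA-MB-468. Divided by the fold change of these wells, those of MMP2 and MMP9 were 3.92 and 3.21 in MDA-MB-231 on geometric average. In MDA-MB-468 they were 3.62 and 3.67. These are quotients of fold changes and not of signal levels. For TIMP4 the quotients were 1.02 in MDA-MB-231 cells and 1.08 in MDA-MB-468, but single comparisons lay between 0.458 and 2.75. For TIMP2 they were 0.584 and 0.668, and for TIMP3 0.649 and 0.463. In MDA-MB-468 with control 4, the fold change of TIMP4 was 0.997 of that of these wells. The threshold cycles could not be matched to samples and were not used. It is therefore not known whether TIMP4 amplified there, nor whether the gelatinases amplified in unstimulated cells, and a fold change over a well at the ceiling would be a lower bound.

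The low values of MDA-MB-468 with control 4 were not particular to the gelatinases. The median log2 fold change of the 84 target genes was 0.17, 0.35 and -0.92 in this line with controls 2, 3 and 4, against 0.37, -0.04 and 0.39 in MDA-MB-231. The 3 positive PCR control wells, which hold a preset template and its primers, had fold changes between 0.374 and 0.482 in the same comparison, and between 1.94 and 2.08 with control 2. Set against the median of the target genes in the same comparison, the log2 fold changes of MMP2 in MDA-MB-468 were 2.76, 2.22 and 1.76, and those of MMP9 were 2.16, 2.26 and 2.38. By this measure the SD in MDA-MB-468 was 0.112 in place of 0.601 for MMP9 and 0.503 in place of 1.12 for MMP2. In MDA-MB-231 the SD was smaller for MMP2, at 0.0402 in place of 0.203, but larger for the other 4 genes, such as 0.342 in place of 0.245 for MMP9 and 0.252 in place of 0.0766 for TIMP3. TIMP3 was below the median in all comparisons, at -0.98, -0.79 and -0.41 in MDA-MB-468 and at -0.41, -0.09 and -0.59 in MDA-MB-231. This reference was chosen after the values were seen.

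**Figure D2:**
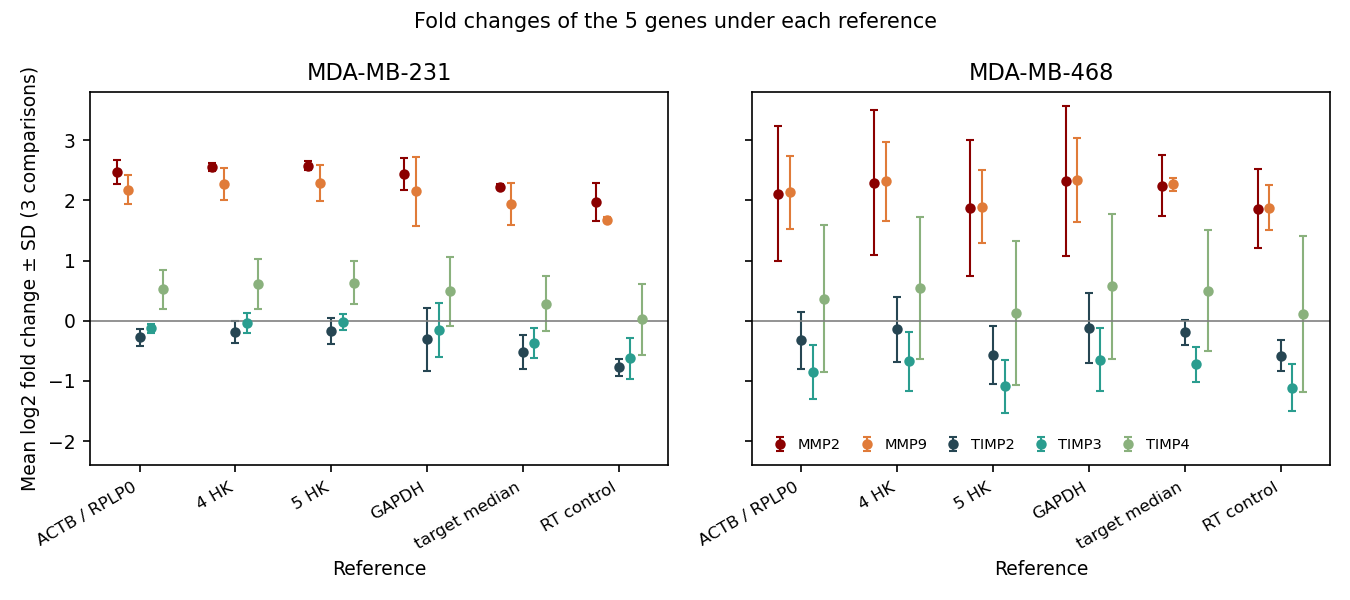
Mean log2 fold change after CM (y axis) with the SD over 3 comparisons as bars, for each of the 5 genes under 6 references (x axis; HK, housekeeping genes; target median, median of the 84 target genes; RT control, reverse transcription control wells). The gelatinases are at 1.68 or higher in MDA-MB-231 cells and at 1.86 or higher in MDA-MB-468 under the 6 references shown, while TIMP4 lies between 0.02 and 0.63 and TIMP2 and TIMP3 lie below 0.

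The change of a gelatinase relative to a TIMP gene in the same comparison needs no reference, because the reference divides out. All 6 pairs of MMP2 or MMP9 with TIMP2, TIMP3 or TIMP4 were shifted toward the gelatinase in every comparison of both lines, and 34 of the 36 values were over 2. The values ran from 2.20 to 8.05 in MDA-MB-231 cells and from 1.74 to 13.4 in MDA-MB-468. Of the 83 other target genes, the ratio to TIMP2 was above 1 in all 6 comparisons for 36.1% and over 2 in all for 21.7%, the ratio to TIMP3 for 44.6% and 20.5%, and the ratio to TIMP4 for 21.7% and 2.41%. Both gelatinases were over 2 in all 6 comparisons against TIMP2 and TIMP3, and neither was against TIMP4. This is the same information as the fold changes above in another form, and not independent of them.

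The ratio of MMP9 to TIMP2 was the steadiest pair. Its change was 5.10, 5.48 and 5.92 in MDA-MB-231 cells and 5.37, 6.14 and 5.04 in MDA-MB-468, with geometric means of 5.49 and 5.50. The lines overlapped fully, and the SD on the log2 scale was 0.107 and 0.144. The ratio of MMP2 to TIMP2 changed by 8.05, 5.65 and 6.64 in MDA-MB-231 cells and by 8.18, 5.95 and 3.28 in MDA-MB-468. The value with control 4 of MDA-MB-468 was again the lowest.

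For TIMP3 the geometric means were higher in MDA-MB-468, at 7.83 for MMP2 and 7.94 for MMP9, than in MDA-MB-231, at 6.03 and 4.94. MMP9 over TIMP3 changed by 3.93, 4.99 and 6.13 in MDA-MB-231 cells and by 8.76, 8.28 and 6.90 in MDA-MB-468, so that the lines did not overlap. Of the 83 other target genes, 36.1% had a ratio to TIMP3 that separated the lines in this direction. MMP2 over TIMP3 changed by 6.20, 5.15 and 6.88 in MDA-MB-231 cells and by 13.4, 8.03 and 4.48 in MDA-MB-468, and here the lines overlapped. Between the inhibitors, TIMP2 over TIMP3 changed by 0.771, 0.912 and 1.04 in MDA-MB-231 cells and by 1.63, 1.35 and 1.37 in MDA-MB-468. These too did not overlap, and the pair was named after its values were seen.

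The ratios to TIMP4 had the lowest geometric means in both lines, from 3.16 to 3.86. MMP2 over TIMP4 changed by 3.48, 3.07 and 5.37 in MDA-MB-231 cells and by 10.1, 1.74 and 2.15 in MDA-MB-468. In the latter line the geometric mean of 3.36 rested on control 2, and without it was 1.94. MMP9 over TIMP4 changed by 2.20, 2.98 and 4.78 in MDA-MB-231 cells and by 6.63, 1.79 and 3.31 in MDA-MB-468.

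**Figure D3:**
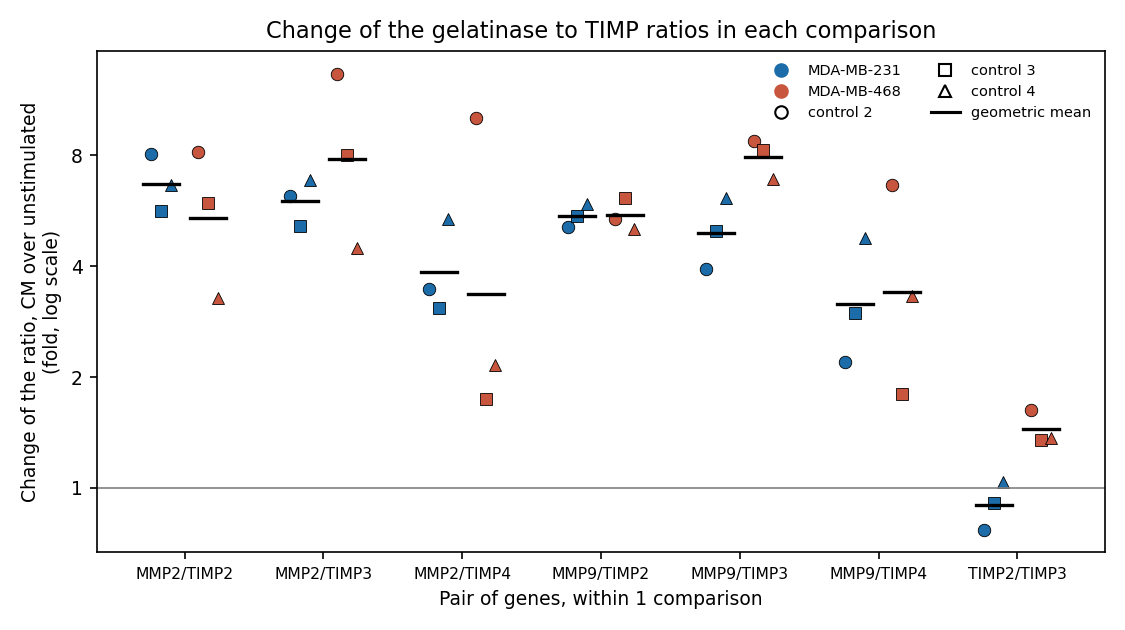
Change of the ratio of 2 genes after CM (y axis, fold, log scale) for the 6 gelatinase to TIMP pairs and for TIMP2 over TIMP3, with 1 point per comparison, shape for the control number, colour for the line and a bar for the geometric mean. All 36 gelatinase to TIMP values lie above 1, and MMP9 over TIMP2 spans 5.04 to 6.14 over both lines.

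The gelatinases belong to a larger set of genes for matrix proteolysis on the array. Of the 10 others described here, 4 were raised in MDA-MB-231 (MMP3, MMP7, MMP10 and MMP13) and 2 in MDA-MB-468 (MMP3 and MMP13), against 31.0% and 27.4% of all target genes, and none was lowered in either line. The median of their log2 fold changes was 0.53 in MDA-MB-231 cells and -0.13 in MDA-MB-468, against 0.13 and -0.16 over the 84 target genes. MMP3 and MMP10 are stromelysins, MMP7 is matrilysin, and MMP13 is a collagenase.

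MMP13 came nearest to the gelatinases among the metalloproteinases, with geometric mean fold changes of 3.64 and 3.72 in MDA-MB-231 and then MDA-MB-468 cells, and MMP3 followed with 2.79 and 3.47. MMP10 had fold changes of 3.49, 3.32 and 3.90 in MDA-MB-231 cells and of 1.24, 1.34 and 0.597 in MDA-MB-468, and the lines did not overlap. MMP7 had 1.99, 1.39 and 3.79 in MDA-MB-231, where it was not raised without control 4, and 1.04, 1.39 and 0.568 in MDA-MB-468. MMP11, another stromelysin, had geometric means of 1.03 and 0.890. The cystatin CST7, an inhibitor of cathepsins, had 0.963 and 0.849. The other wells were those of the cathepsins CTSK (1.34 and 0.695) and CTSL (1.56 and 0.898), of heparanase, HPSE (0.987 and 0.751), and of the urokinase receptor PLAUR (1.09 and 1.08), all given as geometric mean fold changes in MDA-MB-231 and then MDA-MB-468 cells.

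**Figure D4:**
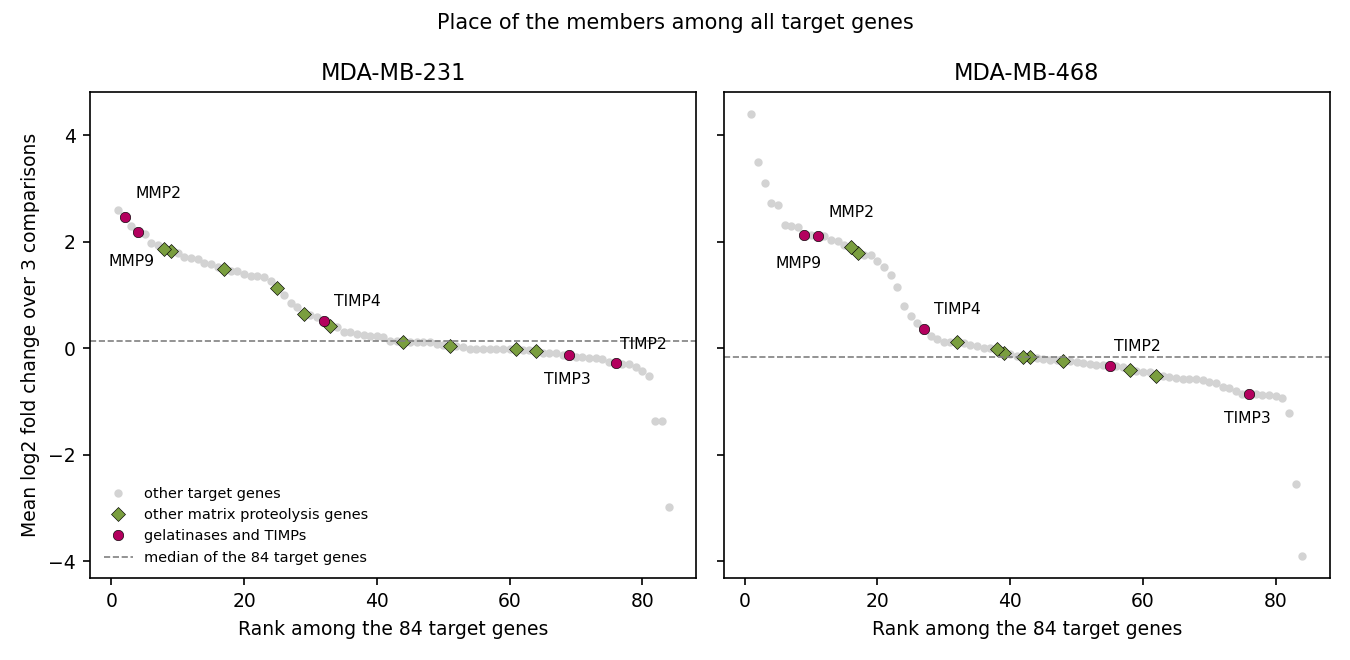
Mean log2 fold change over 3 comparisons (y axis) of the 84 target genes in order of rank (x axis) for each line, with the 5 gelatinase and TIMP genes, 10 other matrix proteolysis genes and the median of all target genes marked. MMP2 and MMP9 hold ranks 2 and 4 in MDA-MB-231 cells and 11 and 9 in MDA-MB-468, and TIMP3 is at rank 76 in MDA-MB-468.

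The pattern of a gene over the 6 comparisons was compared with that of each gelatinase by the root mean square difference of the log2 fold changes. The nearest genes to MMP2 were CXCL12 (0.430), MMP9 (0.451) and MMP13 (0.596). Those nearest to MMP9 were CXCL12 (0.314), CCL7 (0.393) and MMP2 (0.451). CXCL12 and CCL7 encode chemokines, with geometric mean fold changes in MDA-MB-231 and then MDA-MB-468 cells of 3.84 and 4.86 for CXCL12 and of 3.18 and 4.08 for CCL7. The 6 values of each gene share their columns and reference, so the order is a description only. The genes for the cytokines IL1B and TGFB1, which are known to induce gelatinases in many cells, differed from each other. IL1B was raised, at 6.09 and 2.87, and TGFB1 was neither raised nor lowered, at 1.09 and 0.880.

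Macrophages themselves express MMP9. None of the 5 defining genes CD14, CD68, CD163, CSF1R and PTPRC has a well on the array. Of 7 genes with strong expression in myeloid cells, 4 were raised in MDA-MB-231 (CCL7, CXCR2, IL1B and SYK) and 2 in MDA-MB-468 (CCL7 and IL1B), beside 31.0% and 27.4% of all target genes, with geometric mean fold changes between 0.811 and 6.09 in the former line and between 0.545 and 4.08 in the latter. IL18 (0.811 and 1.12), CST7 and PLAUR were not raised in either line, and CXCR2 (1.08) and SYK (0.545) were not raised in MDA-MB-468. Their part in the fold changes of the gelatinases was not tested. The genomic DNA control well also had fold changes above 1 in all 6 comparisons, between 1.71 and 2.04 in MDA-MB-231 cells and between 1.86 and 2.75 in MDA-MB-468. Divided by the fold change of that well, the fold changes of MMP2 and MMP9 were 2.98 and 2.44 in MDA-MB-231. In MDA-MB-468 they were 2.02 and 2.05, but MMP2 with control 4 stood at 0.939. These are quotients of fold changes, and the signal of a gene relative to the well is not known. For the TIMP genes the quotients were below 1 on geometric average. They were 0.444 (TIMP2), 0.493 (TIMP3) and 0.772 (TIMP4) in MDA-MB-231 and 0.373, 0.258 and 0.603 in MDA-MB-468. Set against this well, the mean of TIMP4 was thus on the other side of 1, and the means of TIMP2 and TIMP3 were under 0.5 in both lines.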

How the data were processed

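RNA of both cell lines, with CM or unstimulated, was measured by quantitative PCR on 96 wells (84 target genes, 5 housekeeping genes, 7 control wells). The authors analyzed the threshold cycles in the GeneGlobe Data Analysis Center and deposited fold changes, linear ratios (2 to the power of -ΔΔCt) between a CM sample and an unstimulated one with housekeeping genes as the reference and without pooling. The cycle ceiling is not given in the sources used here. The 6 numbered comparisons were used. The 2 unnumbered columns of the authors' mean fold changes were not used, nor were 16 columns of threshold cycles, whose names match no sample label. Abundance and depth are therefore unknown, no interval was computed, and the 3 comparisons per line limit the precision.

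Wells were paired with symbols through the study's supplementary table for this array. Ratios were divided by ACTB (MDA-MB-231) or RPLP0 (MDA-MB-468), as that table does, and summarized as geometric means with the SD on the log2 scale. No test was run, and the planned limma fit, its replicate block and the cycle ceilings need cycles of single samples. The members and lists were chosen with earlier results of these data known. Genes named are the members, 10 other matrix proteolysis genes (1 more of that list is not reported here), the 3 nearest genes to each gelatinase, 2 inducers, CDH1, the housekeeping genes, 7 myeloid genes and the control wells. Alternatives were 4 other references and each comparison left out, a threshold of 2 in each comparison and, chosen after seeing the data, a threshold of 1.5 and the median of all target genes as reference. Promoters came from a RefSeq table. Python 3.11.15, numpy 2.4.6, pandas 2.3.3 and matplotlib 3.10.9 were used.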

Additional observations from a re-analysis of the deposited data

Results flagged for a closer look

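With ACTB or RPLP0 as the reference, CTSK and SYK were above 1 in all MDA-MB-231 comparisons and below 1 in all MDA-MB-468 ones, a difference that was not tested. For CTSK this depends on the reference. Its fold changes in MDA-MB-468 with controls 2 and 3 were 0.917 and 0.943, above those of GAPDH, at 0.783 and 0.875. The mean log2 fold change of CTSK was 0.43 in MDA-MB-231 cells and -0.53 in MDA-MB-468, and that of SYK was 1.52 and -0.88. The genomic DNA control well, which is outside the target genes, lay above 1 in all 6 comparisons, at 0.89 on the log2 scale on average in MDA-MB-231 cells and 1.09 in MDA-MB-468. None of the gelatinase or TIMP genes lay above 1 in all comparisons of 1 line and below 1 in all of the other. TIMP4 was above 1 in all 3 comparisons of MDA-MB-231 and below 1 in 2 of the 3 of MDA-MB-468. Groups of 3 comparisons were too small for the check of single values.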

How the results depend on the processing

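MMP2 and MMP9 were counted as raised in both lines under all 5 other references and with each comparison left out. Under these references the mean log2 fold changes lay between 1.97 and 2.58 for MMP2 and between 1.68 and 2.29 for MMP9 in MDA-MB-231, and between 1.86 and 2.32 for MMP2 and between 1.88 and 2.34 for MMP9 in MDA-MB-468. No mean log2 fold change of the 5 genes changed sign under these 5 references, but single comparisons of TIMP2, TIMP3 and TIMP4 did. Values that moved by more than the SD between comparisons were all in MDA-MB-231. The SDs of the 5 genes were smaller there, from 0.0766 to 0.325, than in MDA-MB-468, from 0.448 to 1.22. The same shift is therefore counted more readily in MDA-MB-231, and the count does not show that MDA-MB-468 was the steadier line. With the RT control wells as the reference, the mean log2 fold change was 1.97 for MMP2, 1.68 for MMP9, -0.78 for TIMP2, -0.62 for TIMP3 and 0.022 for TIMP4. With the median of the target genes it was 2.23 for MMP2, -0.52 for TIMP2 and -0.36 for TIMP3, and TIMP3 was at -0.016 when all 5 housekeeping genes were averaged and at -0.036 with the 4 without B2M. Of the members, 1 was lowered in MDA-MB-468, namely TIMP3, with 3 settings (the 5 housekeeping genes or the RT control wells as reference, or a threshold of 1.5), and from 0 to 1 were lowered with each comparison left out. Where each comparison had to exceed 2, 1 member was raised in MDA-MB-468, which was MMP9. The raised matrix proteolysis genes of MDA-MB-231 numbered 2 with the RT control wells in place of 4. That reference lowers every gene of this line, and the share of all target genes raised under it was not computed. With each comparison left out, the mean of TIMP4 in MDA-MB-468 ranged from -0.34 to 0.75. No paired analysis was possible because the planned one, a fit with the replicate number as a block, needs a value for each sample. The values used were ratios. Those with control 2 could be matched to a CM sample, and those with controls 3 and 4 only to a group. The ratios are themselves paired values, and no test was run on them, since controls 3 and 4 of a line may share a CM sample. Settings for expression levels, as opposed to fold changes, which need the cycles of each sample (the ceiling, the reference and the replicate block of a fit), were not run.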
